A study of Mus musculus with 20 samples.

Results

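Interferon-stimulated genes were followed in mouse CD4 T cells without Il6ra, which encodes the chain that binds IL-6, and in wild-type cells. The members were 33 of the 39179 gene IDs in the count tables, chosen by name. They were read as 2 lists. The first held 25 antiviral genes that are classical targets of type I interferon, and the second held 7 interferon-gamma-inducible GTPase genes (Gbp2, Gbp3, Gbp7, Igtp, Iigp1, Irgm1 and Irgm2) with Irf1, the gene of a transcription factor of the same response. All 33 passed the filter on low counts in both parts of the series, so every member was tested in every comparison.

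Type I interferons bind the IFNAR receptor and activate the ISGF3 complex, which holds STAT2 and IRF9 and binds the interferon-stimulated response element (ISRE). Interferon-gamma binds the IFNGR receptor and acts through the gamma-activated site (GAS) to switch on IRF1, guanylate-binding proteins (GBPs) and immunity-related GTPases (IRGs). Products of the first kind block viral replication, and GBPs and IRGs attack vacuoles that hold intracellular microbes. Many of these genes answer both kinds of interferon, so the lists overlap in their known inducers.

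The study asked about IL-6 signalling in Th17 cells, the IL-17-producing class of helper T cells, and deposited 20 RNA-seq libraries of C57BL/6 mouse cells that carry an Il17f/Thy1.1 reporter allele. In the transfer part, Il6ra-/- (CD45.2) and wild-type (CD45.1) T cells were cultured for 6 days with anti-CD3, irradiated splenic antigen-presenting cells, TGF-beta at 2.5 ng/ml, hyper-IL-6 at 20 ng/ml and neutralising antibodies to interferon-gamma and IL-4. Hyper-IL-6 joins IL-6 to a soluble form of Il6ra's product, so it also reaches cells that cannot bind IL-6 themselves. The reporter-positive cells were sequenced before transfer (2 Il6ra-/- and 2 wild-type libraries) or placed, 200000 cells of each genotype together, into Rag1-/- mice, which lack T and B cells of their own, to induce colitis. After 4 weeks all live CD4+ TCRb+ cells of the colon, reporter-positive or not, were sorted by CD45 allele from pooled recipients (3 Il6ra-/- and 3 wild-type libraries), so the gates before and after transfer differ. Library 0 of each group came from a first experiment, and libraries 1 and 2 came from a second. The culture part compared, with 2 libraries each, Il6ra-/- cells grown with hyper-IL-6 at 63 ng/ml, wild-type cells grown with hyper-IL-6 at 63 ng/ml, wild-type cells grown with IL-6 at 20 ng/ml, Il6ra-/- naive cells and wild-type naive cells, all heterozygous for the reporter. The 6 cultured libraries had the same TGF-beta dose as the transfer part, with irradiated antigen-presenting cells and 6 days of growth; the sources used here do not give the antibodies of these cultures. For all 10 libraries of the culture part, naive ones included, PMA and ionomycin are labelled as added 4 h before the sort.

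Transfer libraries held 12718633 to 23745060 gene counts each, and culture libraries 20160774 to 46848016. Levels are CPM, counts divided by library size, after TMM scaling within a part, and log2 fold changes carry their SE. CPM is not scaled by gene length, so levels are compared within a gene only. Changes were called at an adjusted p under 0.05 in edgeR's quasi-likelihood test, with Benjamini-Hochberg adjustment over all 14225 genes tested in the transfer part or 14926 in the culture part. Nothing in the labels ties libraries of a group to separate mice, so the p-values speak to the spread among these libraries, which may be technical. The 10 CD4 T cell marker genes summed to between 2660 and 8698 CPM over the 20 libraries, and none was at 0 in any group. These are bulk samples, in which fewer cells of a type and less RNA per cell cannot be told apart.

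The promoters of the members were read for the cores of both elements. RefSeq promoter windows on GRCm38.p6, running from 250 bases before to 50 after the transcription start, were found for 18 of the 25 antiviral genes and 7 of the 8 GTPase-list genes. Mx1, Mx2, Oas2, Usp18, Rtp4, Zbp1, Parp14 and Iigp1 had none. The stretches below end before the start and have in capitals the ISRE core, which is GAAA, any 2 bases and GAAA, and the GAS core, which is TTC, any 3 bases and GAA. Both were searched on both strands (the ISRE core reads TTTC, any 2 bases and TTTC on the other strand, and the GAS core reads alike on both), and overlapping matches were counted apart. The first 4 are antiviral genes and the other 6 belong to the GTPase list.
Ifit1, chr19:34640770-34640828, plus strand: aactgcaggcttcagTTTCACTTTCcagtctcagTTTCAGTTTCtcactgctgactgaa
Isg15, chr4:156200860-156200911, minus strand: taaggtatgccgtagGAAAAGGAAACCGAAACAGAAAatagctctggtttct
Rsad2, chr12:26456548-26456587, minus strand: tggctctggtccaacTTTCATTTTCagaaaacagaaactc
Oas3, chr5:120777710-120777749, minus strand: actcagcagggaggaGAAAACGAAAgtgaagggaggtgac
Gbp2, chr3:142620589-142620628, plus strand: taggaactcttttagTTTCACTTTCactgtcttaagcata
Gbp7, chr3:142530215-142530307, plus strand: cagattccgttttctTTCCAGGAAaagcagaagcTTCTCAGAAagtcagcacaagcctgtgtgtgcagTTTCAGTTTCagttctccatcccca
Igtp, chr11:58199496-58199546, plus strand: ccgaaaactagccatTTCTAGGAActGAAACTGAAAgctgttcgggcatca
Irgm2, chr11:58214887-58214937, plus strand: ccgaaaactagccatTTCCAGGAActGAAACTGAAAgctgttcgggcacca
Irgm1, chr11:48871421-48871465, minus strand: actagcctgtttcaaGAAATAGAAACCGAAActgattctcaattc
Irf1, chr11:53769909-53769947, plus strand: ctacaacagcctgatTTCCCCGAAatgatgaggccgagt

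The ISRE core stood in the windows of 10 of the 18 antiviral genes (55.6%) and 6 of the 7 GTPase-list genes (85.7%), against 3.99% of all 27025 genes with a RefSeq window. The GAS core stood in 5 of the 18 antiviral genes (27.8%) and 4 of the 7 GTPase-list genes (57.1%), against 9.55% of these genes. In the Isg15 stretch 3 ISRE cores overlap into a single run. Igtp and Irgm2, IRG genes that lie side by side on chromosome 11, carry stretches that match at 49 of 51 bases, with 2 bases between the GAS and ISRE cores in each. Irf1 had a GAS core and no ISRE core in its window. A match describes these letters and is not a tested binding site. The members were chosen by name as interferon targets, and a link between these cores and the changes below was not tested.

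In culture the members fell almost as a block. Against naive cells of the same genotype, 32 of 33 members were lower in Il6ra-/- cells with hyper-IL-6, in wild-type cells with hyper-IL-6 and in wild-type cells with IL-6, and they were the same 32 genes. Of all genes tested, 34.4%, 33.5% and 33.6% were lower in these 3 comparisons. All 25 antiviral genes fell in each, with a median log2 fold change of -5.76 in Il6ra-/- cells with hyper-IL-6, -5.24 in wild-type cells with hyper-IL-6 and -5.18 in wild-type cells with IL-6, while the median over all genes tested was between 0.04 and 0.05. The antiviral medians are the same with genes that had no count in a cultured group set to their bound. On the GTPase list 7 of 8 genes fell, and its medians were smaller falls, at -2.19, -1.86 and -1.94 in the same order. The lists overlapped gene by gene, as Gbp7 fell further than the antiviral genes Ifi35 and Bst2 in each comparison. Gbp2 was the member that did not pass. The 15 antiviral genes that averaged under 1 CPM in all 3 cultured groups could pass the filter through naive libraries. For such genes a fall was the change open to the test.

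**Figure D1:**
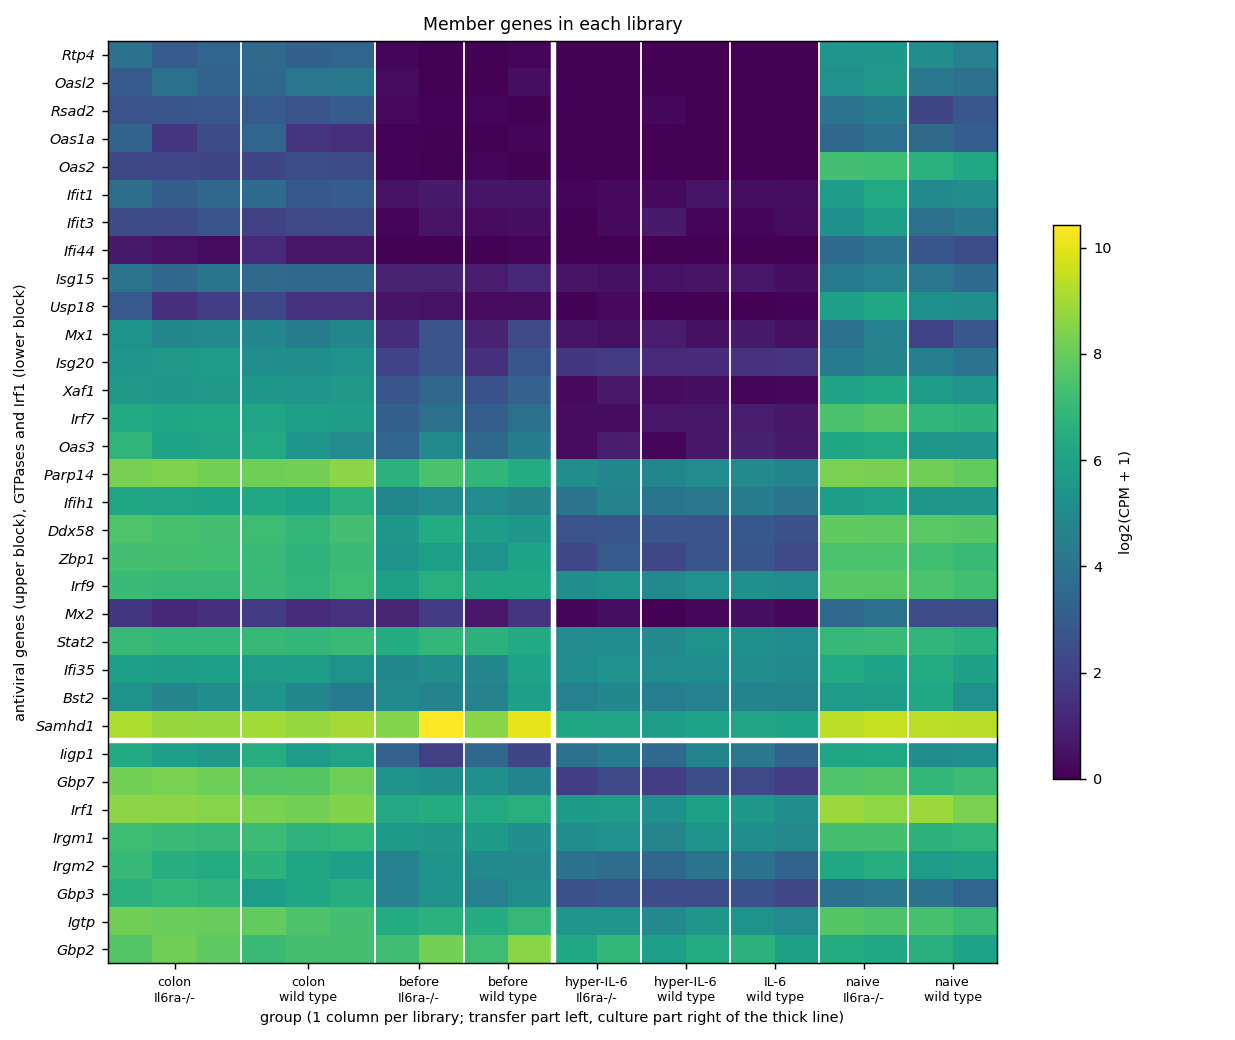
Level of each member in each of the 20 libraries as log2(CPM + 1), with antiviral genes in the upper block, GTPases and Irf1 in the lower block, the transfer part left of the thick line and the culture part right of it. The 6 cultured libraries are the darkest columns of the upper block, where 15 of the 25 antiviral genes were under 1 CPM in all 3 cultured groups.

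The antiviral genes that fell furthest were close to silent after culture. Rtp4, which encodes a receptor-transporting protein with antiviral activity, had no count in any of the 6 cultured libraries, against 42.7 and 46.5 CPM in Il6ra-/- naive cells and 33.4 and 22.2 CPM in wild-type naive cells. With a floor of 3 counts over a group, Rtp4 was at least 1078-fold lower in Il6ra-/- cells with hyper-IL-6, 741-fold lower in wild-type cells with hyper-IL-6 and 753-fold lower in wild-type cells with IL-6. Cultured and naive libraries therefore did not overlap for this gene. Oas2, a sensor of double-stranded RNA that activates RNase L, had no count in either Il6ra-/- library with hyper-IL-6, 0 and 0.0263 CPM in wild-type cells with hyper-IL-6 and 0 and 0.0296 CPM with IL-6, against 159 and 146 CPM in Il6ra-/- naive cells and 101 and 72.6 CPM in wild-type naive cells. It was at least 3678-fold lower in the Il6ra-/- cells, again with no overlap. On the same floor, Oas1a was at least 278-fold lower in Il6ra-/- and 251-fold lower in wild-type cells with hyper-IL-6, and Ifi44 at least 314-fold and 141-fold lower in these groups. In wild-type cells with IL-6, Oasl2 was at least 423-fold and Rsad2 at least 131-fold lower.

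Rtp4 lies on chromosome 16 (GRCm38, 23520291 to 23614222), and the Oas genes lie close together on chromosome 5, with Oas2 at 120730333 to 120749853, Oas3 at 120753098 to 120777661 and Oas1a at 120896256 to 120907521.

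Genes that build and amplify the type I response were part of the fall. Irf7, the transcription factor that drives interferon-alpha genes, was at 0.28 and 0.272 CPM in Il6ra-/- cells with hyper-IL-6, 0.548 and 0.58 CPM in wild-type cells with hyper-IL-6 and 0.757 and 0.593 CPM with IL-6, against 173 and 198 CPM in Il6ra-/- naive cells and 114 and 106 CPM in wild-type naive cells. Its log2 fold changes were -9.38 ± 0.17, -7.60 ± 0.15 and -7.31 ± 0.15 in the same order (edgeR adjusted p of 1.22e-10, 1.27e-10 and 1.48e-10). Ifit1, which binds viral RNA that lacks cap methylation, was at 0.112 and 0.218 CPM in Il6ra-/- cells with hyper-IL-6, 0.214 and 0.527 CPM in wild-type cells with hyper-IL-6 and 0.316 and 0.296 CPM with IL-6, against 53 and 78.6 CPM in Il6ra-/- naive cells and 29.6 and 34.3 CPM in wild-type naive cells. For Irf7 and Ifit1 every cultured library lay below every naive library.

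Not every antiviral gene went silent. Irf9 and Stat2, which encode subunits of ISGF3, and Bst2 (tetherin, which holds budding virus on the cell), Ifi35, Parp14 and Samhd1 (a dNTP hydrolase) each averaged at least 20 CPM in all 3 cultured groups. Irf9 was at 35.8 and 38.6 CPM in Il6ra-/- cells with hyper-IL-6, 29.6 and 37.7 CPM in wild-type cells with hyper-IL-6 and 36.1 and 32.1 CPM with IL-6, against 209 and 212 CPM in Il6ra-/- naive cells and 178 and 152 CPM in wild-type naive cells. The smallest falls of antiviral genes were those of Ifi35 and Bst2. Ifi35 fell by 1.05 ± 0.16, 1.16 ± 0.16 and 1.19 ± 0.16 on the log2 scale in Il6ra-/- with hyper-IL-6, wild type with hyper-IL-6 and wild type with IL-6 (edgeR adjusted p of 0.00013, 6.24e-05 and 4.93e-05), and Bst2 by 1.10 ± 0.24, 1.29 ± 0.24 and 1.13 ± 0.24.

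Among the GTPases, Gbp7 fell furthest and Gbp2 stayed near its naive level. Gbp7 was at 2.74 and 3.89 CPM in Il6ra-/- cells with hyper-IL-6, 2.76 and 4.74 CPM in wild-type cells with hyper-IL-6 and 3.89 and 2.67 CPM with IL-6, against 185 and 200 CPM in Il6ra-/- naive cells and 120 and 140 CPM in wild-type naive cells (log2 fold changes of -5.85 ± 0.26, -5.13 ± 0.25 and -5.29 ± 0.25). Irf1 fell by 3.03 ± 0.24, 3.01 ± 0.24 and 3.25 ± 0.24 on the log2 scale, and the IRG genes Igtp, Irgm1 and Irgm2 by between 1.71 and 2.62. Gbp2 was at 75 and 117 CPM in Il6ra-/- cells with hyper-IL-6, 57.3 and 84.7 CPM in wild-type cells with hyper-IL-6 and 102 and 59.1 CPM with IL-6, against 85.1 and 75.5 CPM in Il6ra-/- naive cells and 93.9 and 64.4 CPM in wild-type naive cells. Its cultured and naive libraries overlapped (log2 fold changes of 0.26 ± 0.29, -0.16 ± 0.29 and 0.03 ± 0.29), although Gbp2, Gbp3 and Gbp7 stand in a single cluster on chromosome 3 (GRCm38, from 142530342 at the start of Gbp7 to 142638008 at the end of Gbp2).

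Iigp1, an IRG gene, fell least among the members that passed in wild-type cells with hyper-IL-6, where it was at 10.7 and 24.9 CPM, against 34.9 and 36.2 CPM in wild-type naive cells (edgeR adjusted p = 0.0273). That call rested on single libraries. It was lost without wild-type hyper-IL-6 library 1, where the log2 fold change was -0.50, and without either wild-type naive library. With DESeq2 the adjusted p was 0.0524. In Il6ra-/- cells with hyper-IL-6 Iigp1 was at 13.4 and 18.9 CPM, against 69.9 and 74 CPM in Il6ra-/- naive cells, a log2 fold change of -2.16 ± 0.36.

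Markers of other cells moved between naive and cultured libraries too. The 7 B cell marker genes summed to between 8.89 and 11.3 CPM in cultured cells of all 3 kinds and to between 409 and 461 CPM in naive cells; 4 of 7 were lower with hyper-IL-6 in each genotype and 3 of 7 with IL-6, and 1 of 7 was higher in each comparison. No B cell marker was at 0 in all cultured or in all naive libraries. The 10 stromal and endothelial marker genes summed to between 13.1 and 29.3 CPM in cultured and between 245 and 310 CPM in naive cells, where Col1a2, Dcn, Lum and Pdgfra were at 0. The 5 of them that were tested went both ways. With hyper-IL-6, 2 were higher and 3 lower in Il6ra-/- cells, and 1 was higher and 3 lower in wild-type cells. With IL-6, 2 were higher and 1 lower. The 10 CD4 T cell markers themselves summed to between 2660 and 3018 CPM in cultured and between 4871 and 5364 CPM in naive cells. The part of these shifts in the fall of the members was not tested.

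**Figure D2:**
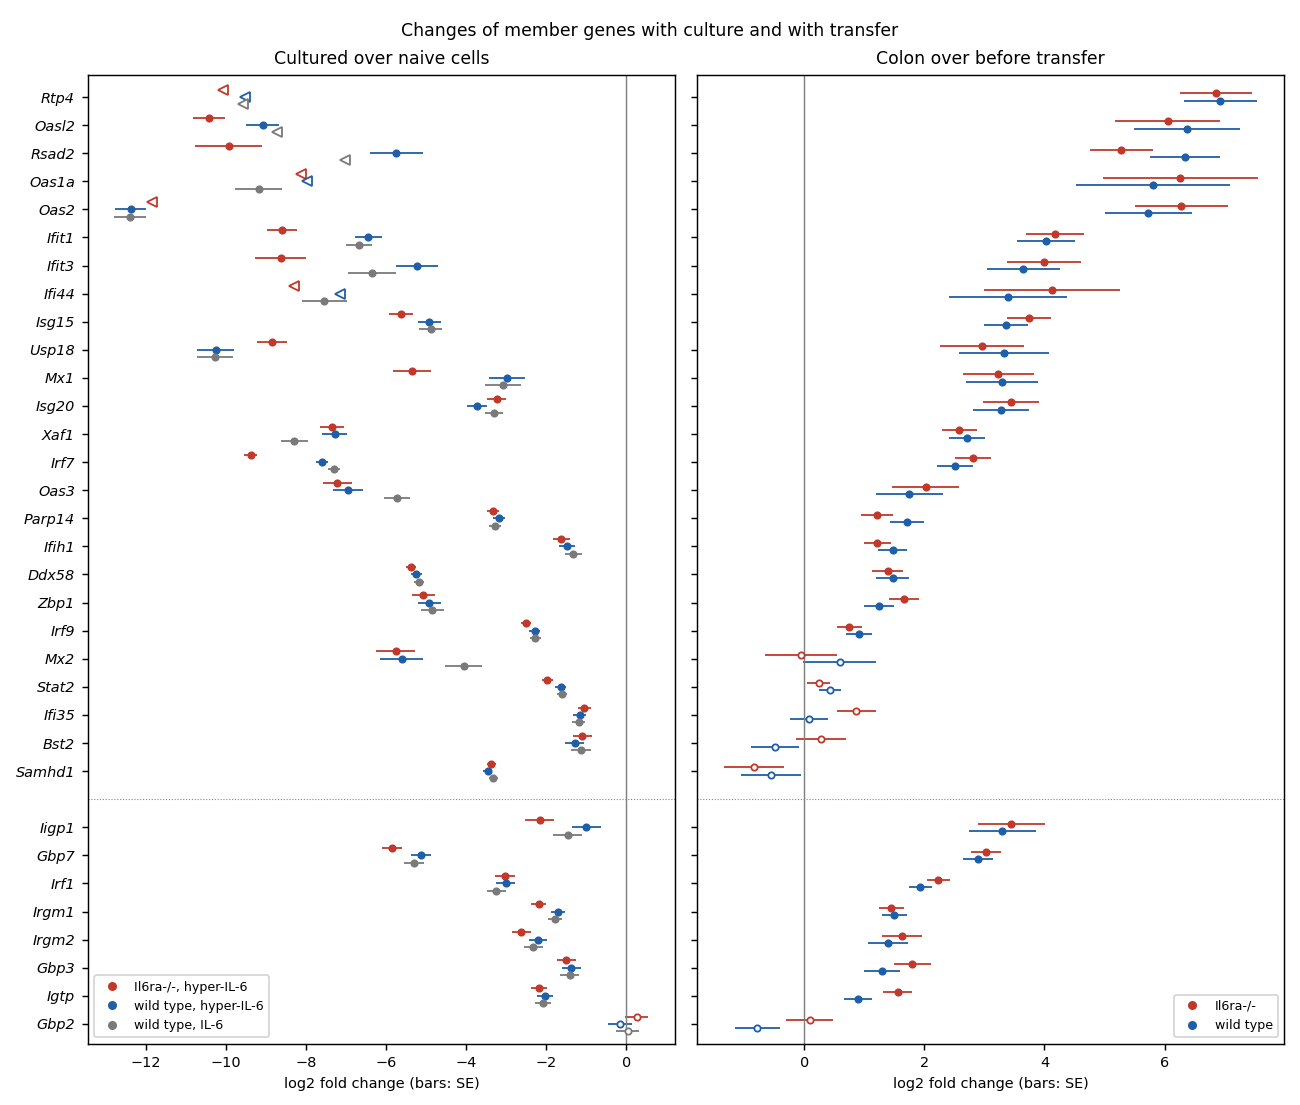
Log2 fold change of each member (x axis; bars are SE) in cultured over naive cells (left) and in colon cells over cells before transfer (right), with filled circles for an edgeR adjusted p under 0.05, open circles for those that did not pass and triangles for bounds where the cultured group had no count. Nearly all points lie left of 0 in the left panel and 27 of 33 members rose in the right panel, while Gbp2 is open in both panels.

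No member passed between the kinds of culture. Between hyper-IL-6 and IL-6 in wild-type cells 0 of 33 members passed in edgeR and 0 in DESeq2, and 2 had an unadjusted p under 0.05 in edgeR (Mx2 and Oas3, both lower with hyper-IL-6 and both under 1 CPM); of all genes tested, 0% passed. The median log2 fold change was -0.03 over the antiviral genes and 0.10 over the GTPase list, with a median SE of 0.43 and 0.23. Between Il6ra-/- and wild-type cells with hyper-IL-6 0 of 33 passed in either tool, 0% of all genes passed, and Irf7 and Isg20 had an unadjusted p under 0.05. The log2 fold change of Irf7 was -1.02 ± 0.29 there, and that of Isg20, an exonuclease of viral RNA, was 0.75 ± 0.25 (2.24 and 2.40 CPM in Il6ra-/- cells, 1.38 and 1.37 CPM in wild-type cells).

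Cells before transfer were also cultured cells, but with hyper-IL-6 at 20 ng/ml and with antibodies as described above, and no stimulation before the sort is labelled for them. Both lists were less low there, without a test since the parts were scaled apart. Means were above those of hyper-IL-6 cultures of the same genotype for 24 of 25 antiviral genes in Il6ra-/- and 23 of 25 in wild-type cells. On the GTPase list they were above for 7 of 8 genes in each genotype. The share of all genes is not given for these counts. Of the 25 antiviral genes, 9 averaged under 1 CPM in both genotypes (Ifit1, Ifit3, Oas1a, Oas2, Oasl2, Rsad2, Usp18, Ifi44 and Rtp4), and none of the 8 GTPase-list genes did. Between Il6ra-/- and wild-type cells before transfer 0 of 33 members passed in edgeR, 0 in DESeq2 and 0 at an unadjusted p under 0.05, against 0.00703% of all genes that passed. Without wild-type library 0 before transfer, Ifi35 was lower in Il6ra-/- cells (1 of 33 members, against 2.14% of all genes). The libraries of a genotype, which come from different experiments, were apart for several members. Over all genes, same-numbered libraries of both genotypes also deviated together (correlation of 0.43). Shares of all genes are not given for the counts of members that follow. Of the 22 members with at least 20 counts in each of the 4 libraries, 13 were higher in library 1 than in library 0 in both genotypes, 4 of them over 2-fold (Mx1, Oas3, Samhd1 and Gbp2), and 3 were lower in both (Gbp7, Iigp1 and Irgm1). Samhd1, for example, had 354 and 1372 CPM in the Il6ra-/- libraries 0 and 1 and 383 and 1040 CPM in the wild-type libraries 0 and 1.

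Most members were higher in the colon than before transfer. Of the 33 members, 27 were higher than before transfer in Il6ra-/- cells, where 13.8% of all genes were higher, and the same 27 were higher in wild-type cells, where 17.1% were. No member was lower, against 13.2% of all genes in Il6ra-/- and 15.8% in wild-type cells. By list, 20 of 25 antiviral genes and 7 of 8 GTPase-list genes rose in each genotype. The median log2 fold change of the antiviral genes was 2.81 in Il6ra-/- and 2.71 in wild-type cells, and that of the GTPase list 1.71 and 1.44, while the median over all genes was -0.00 and -0.02. All 27 had also been lower in the 3 culture comparisons, but so had 32 of all 33 members, so this overlap does not link the 2 changes. The 9 antiviral genes that averaged under 1 CPM before transfer in both genotypes could pass the filter through colon libraries. They had little room to fall, so a rise was the change open to the test.

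The antiviral genes that rose furthest were among those nearest to 0 before transfer. Rtp4 was at 13.9, 6.92 and 9.58 CPM in Il6ra-/- colon cells, against 0.117 and 0.0427 CPM before transfer, and at 11.0, 8.32 and 9.69 CPM in wild-type colon cells, against 0.047 and 0.0991 CPM before transfer. Its log2 fold change was 6.86 ± 0.60 in Il6ra-/- and 6.93 ± 0.61 in wild-type cells (edgeR adjusted p of 2.73e-05 and 2.91e-05), and colon libraries lay far above the others in both. Oas2 was at 3.76, 3.62 and 3.56 CPM in Il6ra-/- colon cells, against 0.0777 and 0 CPM before transfer, and at 3.59, 4.63 and 4.36 CPM in wild-type colon cells, against 0.0939 and 0.0496 CPM before transfer. Rsad2, the gene of viperin, which makes a chain-terminating nucleotide, was at 5.43, 5.85 and 6.02 CPM in Il6ra-/- colon cells, against 0.194 and 0.0854 CPM before transfer, and at 6.68, 5.52 and 6.92 CPM in wild-type colon cells, against 0.0939 and 0.0496 CPM before transfer. The log2 fold changes of Oas2 were 6.28 ± 0.77 and 5.73 ± 0.73, and those of Rsad2 5.28 ± 0.52 and 6.34 ± 0.58, in Il6ra-/- and wild-type cells. The lowest colon library was above the highest library before transfer for each of these genes. Oasl2, an OAS-like protein, was at 6.88, 13.5 and 9.03 CPM in Il6ra-/- colon cells, against 0.233 and 0.0427 CPM before transfer, and at 10.5, 16 and 17.4 CPM in wild-type colon cells, against 0 and 0.347 CPM before transfer (6.05 ± 0.87 and 6.37 ± 0.88). Ifit1 rose by 4.17 ± 0.48 and 4.03 ± 0.48, and Xaf1, a partner of an inhibitor of apoptosis, by 2.58 ± 0.29 and 2.71 ± 0.30. Ddx58, the RNA sensor RIG-I, rose less, by 1.39 ± 0.26 and 1.47 ± 0.27. Exons of another gene model, Gm45338, overlap 13.9% of the exon length of Rtp4 on the same strand, so part of the Rtp4 counts is uncertain.

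Oas1a stood out for the spread between colon libraries. It was at 9.07, 2.14 and 4.18 CPM in Il6ra-/- and 9.63, 2.05 and 1.73 CPM in wild-type colon cells, libraries 0, 1 and 2, against 0.0777 and 0.0427 CPM in Il6ra-/- and 0 and 0.149 CPM in wild-type cells before transfer. Library 0, from the first experiment, was the highest of the 3 colon libraries in both genotypes for Oas1a and for 13 other members, 14 of 33 in all (10 antiviral genes and the 4 IRG genes Igtp, Iigp1, Irgm1 and Irgm2), while the GBP genes and Irf1 did not share that order. The share of all genes with that order is not given here. Over all genes, colon libraries 0 of both genotypes also deviated together from their group means (correlation of 0.58). The experiment was part of the design and cannot be told apart from the recipients used in it.

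Among the GTPases and Irf1, Iigp1 and Gbp7 rose most. Iigp1 was at 81.2, 58.7 and 49.1 CPM in Il6ra-/- colon cells, against 8.58 and 2.95 CPM before transfer, and at 89.4, 51.1 and 66.6 CPM in wild-type colon cells, against 10.4 and 3.57 CPM before transfer (log2 fold changes of 3.45 ± 0.56 and 3.30 ± 0.56). Gbp7 rose by 3.02 ± 0.25 in Il6ra-/- and 2.89 ± 0.25 in wild-type cells, and Irf1 by 2.23 ± 0.19 and 1.93 ± 0.19. Igtp was at 285, 272 and 254 CPM in Il6ra-/- colon cells, against 85.2 and 98.8 CPM before transfer, and at 244, 184 and 158 CPM in wild-type colon cells, against 87.7 and 122 CPM before transfer (1.56 ± 0.24, adjusted p = 0.000917, and 0.90 ± 0.23, adjusted p = 0.0142, in edgeR). The groups of Igtp did not overlap in either genotype, but with wild-type libraries alone in the fit its adjusted p was 0.0586. The exons of Igtp and Irgm2 overlap over 162 bases on the same strand, 8.01% of the exon length of Igtp and 4.39% of that of Irgm2, so a small part of their counts is uncertain; Gm43802 overlaps 11.3% of the exon length of Gbp7 in the same way.

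The 6 members that passed in neither genotype were Bst2, Gbp2, Ifi35, Mx2, Samhd1 and Stat2. Gbp2 was at 199, 288 and 229 CPM in Il6ra-/- colon cells, against 149 and 299 CPM before transfer, and at 136, 163 and 160 CPM in wild-type colon cells, against 144 and 381 CPM before transfer. Both groups of each genotype overlapped, and the libraries before transfer were themselves more than 2-fold apart (log2 fold changes of 0.09 ± 0.39 and -0.78 ± 0.38). Samhd1 was at 563, 449 and 437 CPM in Il6ra-/- and 503, 431 and 519 CPM in wild-type colon cells, which is between its libraries before transfer. The direction of such members turned with single libraries. Without library 1 before transfer of the same genotype, Samhd1 had 0.45 in Il6ra-/- and 0.33 in wild-type cells, and Gbp2 had 0.08 and Bst2 0.26 in wild-type cells. Without Il6ra-/- library 0 before transfer Gbp2 had -0.35 in Il6ra-/- cells. Ifi35 had 0.87 ± 0.32 in Il6ra-/- cells (edgeR adjusted p = 0.0649) and 0.08 ± 0.31 in wild-type cells; DESeq2 called it as higher in Il6ra-/- cells (adjusted p = 0.0343). In wild-type cells it was higher without library 1 before transfer (0.81, edgeR adjusted p = 0.033). Irf9 passed with small changes, 0.75 ± 0.21 in Il6ra-/- (edgeR adjusted p = 0.024) and 0.91 ± 0.22 in wild-type cells (edgeR adjusted p = 0.0091). With the replicate number as a block the adjusted p in Il6ra-/- cells was 0.058, so that call depended on the design.

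Each experiment gave the same direction for most members. In what follows, counts over all genes are given only for the fit with experiment as a term. In the first, the colon library was above the library before transfer for 33 of 33 members in Il6ra-/- cells and 32 of 33 in wild-type cells, where Gbp2 was lower. In the second, both colon libraries were above the library before transfer for 29 of 33 members in Il6ra-/- cells (not for Gbp2, Mx2, Samhd1 and Stat2) and for 28 of 33 in wild-type cells (not for Bst2, Gbp2, Ifi35, Mx2 and Samhd1). With experiment as a term in edgeR, 27 members were higher in Il6ra-/- and 27 in wild-type cells, where Gbp2 was lower (-0.76, edgeR adjusted p = 0.0487). Of all 14225 genes tested in that fit, 2180 were higher and 1977 lower in Il6ra-/- cells. In wild-type cells 2626 were higher and 2353 lower. Single libraries decided some calls. Without Il6ra-/- library 0 before transfer 21 members were higher in Il6ra-/- cells, where Ifi44, Irf9, Irgm2, Oas3, Parp14 and Usp18 did not pass, and Samhd1 was lower (-1.53, edgeR adjusted p = 0.0316). Without wild-type library 0 before transfer Gbp2 was lower in wild-type cells (-1.30, edgeR adjusted p = 0.0122), Stat2 was higher (0.63) and Oas3 and Ifi44 did not pass. Without library 1 before transfer of the same genotype, Ifi44 passed in neither genotype, Usp18 did not pass in Il6ra-/- cells and Irgm2 did not in wild-type cells. Without colon library 0 of the same genotype, Oas3 passed in neither genotype and Irf9 did not pass in Il6ra-/- cells; Irf9 also missed there without colon library 1 or 2, as Oas3 did in wild-type cells without colon library 1.

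Markers of other cells also moved between these stages. The 14 myeloid marker genes summed to between 207 and 533 CPM in Il6ra-/- and 233 and 558 CPM in wild-type colon cells, against between 85.1 and 134 CPM in Il6ra-/- and 131 and 165 CPM in wild-type cells before transfer, with none at 0 in the colon and C1qc at 0 in wild-type cells before transfer; 11 of 14 in Il6ra-/- and 12 of 14 in wild-type cells were higher in the colon. The 12 epithelial marker genes summed to between 185 and 410 CPM in Il6ra-/- and 210 and 819 CPM in wild-type colon cells, against at most 116 CPM before transfer, where Slc26a3 was at 0; 9 of 12 were higher in each genotype. The 8 markers of CD8, NK and gamma-delta T cells summed to between 225 and 298 CPM in Il6ra-/- and 108 and 144 CPM in wild-type colon cells, against between 32.4 and 49.9 CPM in Il6ra-/- and 49.3 and 103 CPM in wild-type cells before transfer, where Ncr1 was at 0. In wild-type colon cells 1 myeloid marker was lower. Of the 7 tested CD8, NK and gamma-delta markers, 6 were higher in Il6ra-/- cells, and 4 were higher and 1 lower in wild-type cells. No B cell marker was higher, and 2 of 6 tested in Il6ra-/- and 3 of 6 in wild-type cells were lower. Of 9 tested stromal and endothelial markers, 5 were higher in Il6ra-/- cells, and 4 were higher and 1 lower in wild-type cells. Of all genes, 13.8% and 17.1% were higher in these genotypes. The part of such cells in the rise of the members was not tested.

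**Figure D3:**
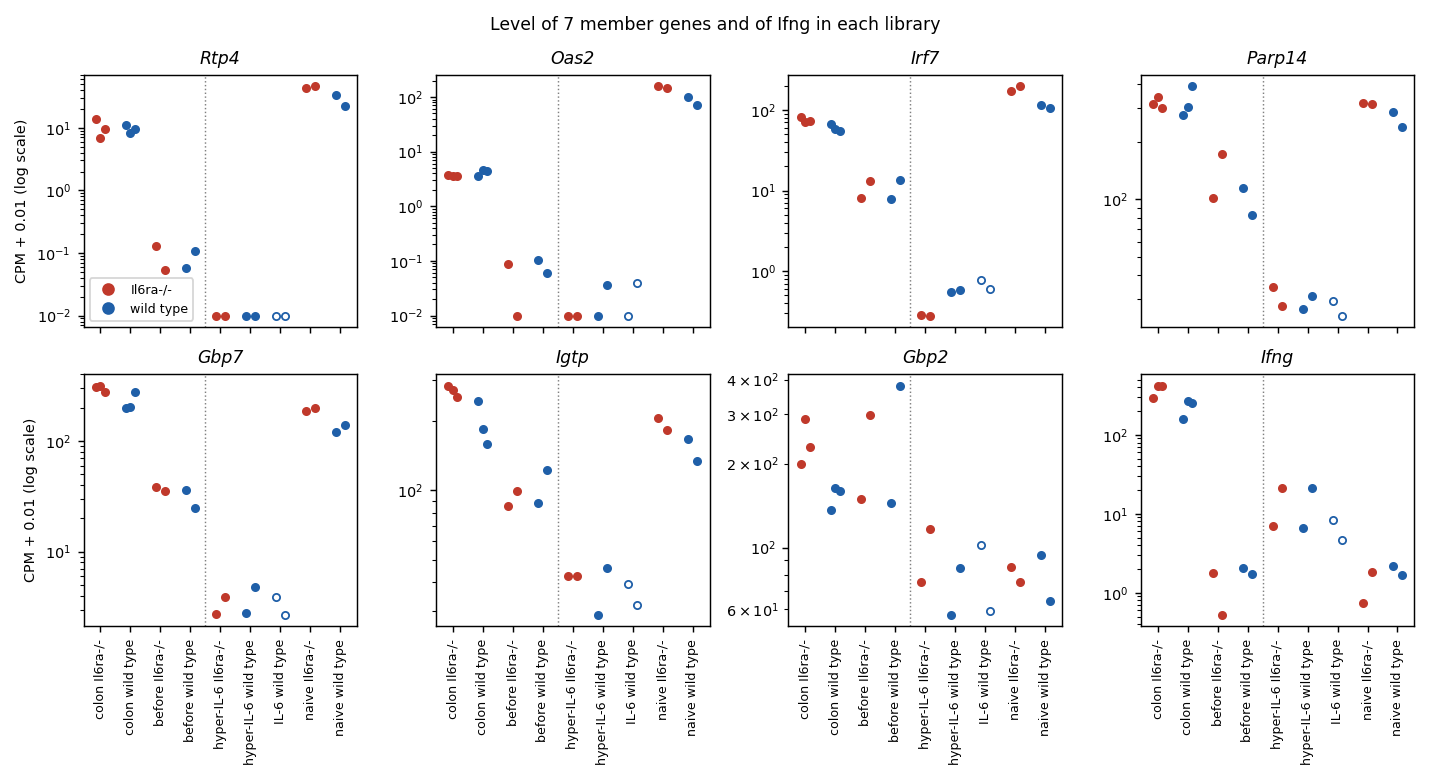
CPM + 0.01 on a log axis for 7 members and Ifng, with 1 point per library, Il6ra-/- in red and wild type in blue, and open circles for IL-6 cultures; the dotted line separates the transfer part from the culture part, which were scaled apart. Rtp4, Oas2 and Irf7 show the deepest culture levels, Gbp2 the smallest range, and Ifng is highest in the 6 colon libraries.

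Upstream genes of the pathway were read from a list of ligands, receptors, kinases and regulators. Ifng, the gene of interferon-gamma, was at 293, 418 and 422 CPM in Il6ra-/- colon cells, against 1.79 and 0.513 CPM before transfer, and at 157, 271 and 256 CPM in wild-type colon cells, against 2.07 and 1.73 CPM before transfer. The log2 fold change was 8.34 ± 0.56 in Il6ra-/- and 6.90 ± 0.52 in wild-type cells (edgeR adjusted p of 6.43e-06 and 1.15e-05). Ifna1, Ifna2, Ifna4 and Ifna5, the interferon-alpha genes of the list, had no count in any of the 20 libraries, and Ifnb1 had none in the transfer part. In culture Ifng rose as the members fell, by 3.43 ± 0.71 in Il6ra-/- cells with hyper-IL-6, 2.85 ± 0.67 in wild-type cells with hyper-IL-6 and 1.76 ± 0.68 with IL-6, where 37.5%, 36.8% and 37% of all genes were higher.

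The receptor chains for interferon-gamma moved in opposite directions in the colon. Ifngr1, the ligand-binding chain, averaged 1037 ± 127 CPM in Il6ra-/- colon cells, against 277 ± 105 CPM before transfer, and 959 ± 153 CPM in wild-type colon cells, against 300 ± 90.1 CPM before transfer (SD, n = 3 and 2). It rose by 1.90 ± 0.31 in Il6ra-/- and 1.68 ± 0.30 in wild-type cells. Ifngr2, the signalling chain, was at 5.55, 5.10 and 3.70 CPM in Il6ra-/- colon cells, against 65.9 and 84.5 CPM before transfer, and at 12.1, 4.94 and 7.75 CPM in wild-type colon cells, against 81.7 and 92.1 CPM before transfer. It fell in both genotypes, in Il6ra-/- cells with a log2 fold change of -3.97 ± 0.34 (edgeR adjusted p of 2.71e-05 in Il6ra-/- and 5.29e-05 in wild-type cells), and every colon library was below every library before transfer. The type I receptor genes Ifnar1 (0.36 ± 0.20 in Il6ra-/-, 0.41 ± 0.20 in wild type) and Ifnar2 (-0.00 ± 0.30 and -0.26 ± 0.30) did not pass. Of the kinases, Tyk2 rose and Jak2 fell in both genotypes, and Jak1 rose in wild-type cells (0.95 ± 0.24) and had 0.61 ± 0.24 in Il6ra-/- cells, which did not pass.

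Nlrc5, the transactivator of MHC class I genes, followed the members. It averaged 918 ± 21.8 CPM in Il6ra-/- colon cells, against 95.2 ± 44.8 CPM before transfer, and 744 ± 14.1 CPM in wild-type colon cells, against 72.5 ± 10.5 CPM before transfer (SD, n = 3 and 2). Nlrc5 rose by 3.27 ± 0.30 and 3.36 ± 0.30. In culture it fell by 4.23 ± 0.20, 3.82 ± 0.20 and 3.93 ± 0.20 in Il6ra-/- with hyper-IL-6, wild type with hyper-IL-6 and wild type with IL-6. Among 8 negative regulators, 1 fell in Il6ra-/- colon cells (Socs3, an inhibitor of IL-6 signalling, adjusted p = 0.0499 in edgeR) and 3 fell in wild-type colon cells (Socs1, Socs3 and Ptpn6), beside 13.2% and 15.8% of all genes that were lower in these comparisons. Socs1, the main inhibitor of interferon-gamma signalling, had a log2 fold change of -0.80 ± 0.42 in Il6ra-/- and fell by 1.54 ± 0.42 in wild-type cells.

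Antiviral genes outside the members also rose in most cases in the colon. Of all genes, 13.8% rose and 13.2% fell in Il6ra-/- cells, and 17.1% rose and 15.8% fell in wild-type cells. Of 13 tested sensor and adaptor genes of the pathway, 2 rose in Il6ra-/- and 3 in wild-type cells, and 0 fell. Of 36 tested antiviral genes of a longer list, 21 rose and 0 fell in Il6ra-/- colon cells. In wild-type colon cells 22 rose and 4 fell. The 4 that fell were Ifi27l2a, Ifitm1, Ifitm2 and Ifitm3; in Il6ra-/- cells they did not pass, and the log2 fold changes of Ifitm1, Ifitm2 and Ifitm3 were 1.19 ± 0.70, 0.73 ± 0.42 and 0.88 ± 0.53 there. Directly between colon genotypes, Ifitm1 was at 143, 140 and 141 CPM in Il6ra-/- and 32.8, 24.9 and 19.6 CPM in wild-type cells. The differences of Ifitm1, Ifitm2 and Ifitm3 there were 2.46 ± 0.63, 1.54 ± 0.38 and 1.74 ± 0.48, which did not pass in edgeR (adjusted p of 0.338, 0.282 and 0.416). DESeq2 called all 3 as higher in Il6ra-/- cells (adjusted p of 0.00385, 0.0103 and 0.0282), where it called 133 of 14223 genes in either direction, and with the replicate block edgeR called Ifitm1 and Ifitm2 (adjusted p of 0.00275 and 0.0242). The largest changes that passed in both genotypes were those of Ifit1bl1 (6.42 ± 0.59 in Il6ra-/-, 5.90 ± 0.58 in wild type), Parp12 (5.04 ± 0.30 and 5.93 ± 0.33), Ifit3b, which had no count in wild-type cells before transfer, and Epsti1 (4.05 ± 0.46 and 3.86 ± 0.46). Of 9 further interferon-gamma GTPase genes, 5 rose and 1 fell in Il6ra-/- and 4 rose and 1 fell in wild-type colon cells. Gbp4 was at 441, 447 and 432 CPM in Il6ra-/- colon cells, against 24.5 and 31.4 CPM before transfer, and at 372, 369 and 484 CPM in wild-type colon cells, against 23.2 and 29.3 CPM before transfer. Gbp4 (3.98 ± 0.25 and 3.96 ± 0.25), Gbp8 (4.38 ± 0.29 and 3.65 ± 0.28) and Gbp9 (4.33 ± 0.26 and 4.87 ± 0.27) had larger fold changes than Gbp2, Gbp3 and Gbp7, and Gbp2b fell by 1.01 ± 0.20 and 1.07 ± 0.20. In culture 30 of 35 tested genes of the longer antiviral list were lower in each of the 3 comparisons, and 8, 7 and 8 of the 9 further GTPase genes were lower in Il6ra-/- cells with hyper-IL-6, wild-type cells with hyper-IL-6 and wild-type cells with IL-6. Of all genes tested, 34.4%, 33.5% and 33.6% were lower in the same order.

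Colon and naive levels stand side by side without a test, since the parts were sequenced, stimulated and scaled apart. The mean of colon cells was below that of naive cells in both genotypes for 18 of 25 antiviral genes and above it for 5 (Isg20, Mx1, Oas3, Ifih1 and Parp14). On the GTPase list it was above the naive mean in both genotypes for 5 of 8 (Gbp2, Gbp3, Gbp7, Igtp and Irgm2) and below it in both for Irf1. The median ratio of colon to naive means was 0.615 in Il6ra-/- and 0.744 in wild-type cells over the antiviral genes, and 1.3 and 1.55 over the GTPase list. Oas2 had the lowest ratio of the antiviral genes and Gbp3 the highest of the GTPase list, but the ratios of the 2 lists overlapped. Mx1 of the antiviral genes had 1.8 in Il6ra-/- and 5.17 in wild-type cells, and Irf1 of the GTPase list 0.899 and 0.84. The ratio for Oas2 was 0.024 in Il6ra-/- and 0.0482 in wild-type cells. Gbp3 was at 99.5, 119 and 108 CPM in Il6ra-/- colon cells, against 14.3 and 16.6 CPM in Il6ra-/- naive cells, and at 56, 68.8 and 88.6 CPM in wild-type colon cells, against 14.1 and 9.58 CPM in wild-type naive cells, which gave ratios of 7.04 and 6.01.

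Between the genotypes in the colon no member passed. In edgeR 0 of 33 passed against 0.155% of all genes, with the replicate number as a block 0 passed, in DESeq2 on all groups 0 passed, and 2 had an unadjusted p under 0.05 (Gbp3 and Igtp). DESeq2 on the colon libraries alone called 1 member, Gbp2, as higher in Il6ra-/- cells (adjusted p = 0.0156), where it called 1.98% of all genes as higher. The Il6ra-/- libraries lay above all wild-type libraries for 11 of 33 members, where 8.6% of all genes did, and below them for 0 of 33, where 7.17% of all genes did. The 11 were Ifi35, Irf7, Zbp1, Ifit3, Isg20 and Mx1 of the 25 antiviral genes and Irf1, Gbp2, Gbp3, Gbp7 and Igtp of the 8 GTPase-list genes.

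The median log2 fold change between colon genotypes was 0.18 over the antiviral genes and 0.38 over the GTPase list, against 0.00 over all genes. Gbp2, at 199, 288 and 229 CPM in Il6ra-/- against 136, 163 and 160 CPM in wild-type colon cells, had 0.64 ± 0.35. Gbp3, at 99.5, 119 and 108 CPM in Il6ra-/- against 56, 68.8 and 88.6 CPM in wild-type colon cells, had 0.61 ± 0.26, and Igtp had 0.47 ± 0.20 (edgeR adjusted p of 1 for each). These differences were under 2-fold. By library number, the GTPase-list genes were higher in the Il6ra-/- library for 7 of 8, 8 of 8 and 7 of 8 genes in numbers 0, 1 and 2, with median log2 ratios of 0.25, 0.46 and 0.18, and the antiviral genes for 18, 17 and 12 of 25, with medians of 0.16, 0.06 and -0.02. The 8 markers of CD8, NK and gamma-delta T cells summed to between 225 and 298 CPM in Il6ra-/- and between 108 and 144 CPM in wild-type colon cells, none of them at 0 in either group, and Klrd1 of these was higher in Il6ra-/- cells (1.74 ± 0.24, edgeR adjusted p = 0.0181). The 7 B cell markers summed to between 36.7 and 84.3 CPM in Il6ra-/- and 16.3 and 29.2 CPM in wild-type colon cells, with Pax5 at 0 in both and none called. The myeloid sums overlapped, and Ifng had 0.73 ± 0.33 in Il6ra-/- over wild-type colon cells (edgeR adjusted p of 1). The part of these cells in the differences was not tested. The test of whether the change from before transfer to colon differed between genotypes gave 0 of 33 members in edgeR and in DESeq2, with 0 at an unadjusted p under 0.05 and 0% of all genes passing. Without wild-type library 0 before transfer it called Ifi35 as rising more in Il6ra-/- cells (1 of 33, against 0.87% of all genes).

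**Figure D4:**
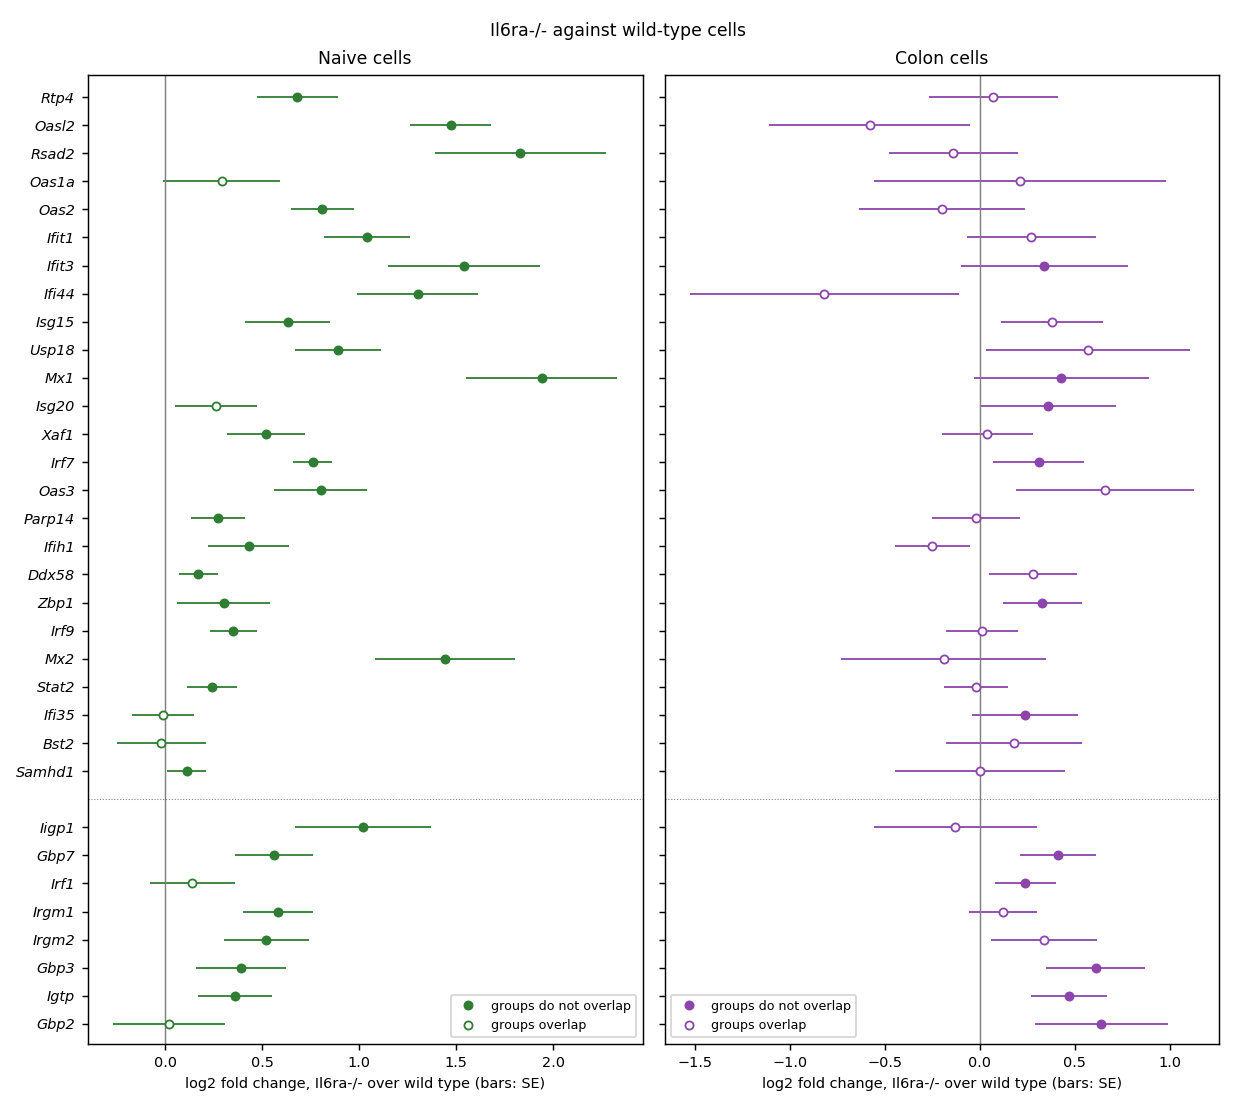
Log2 fold change of each member in Il6ra-/- over wild-type cells (x axis; bars are SE) in naive cells (left) and in colon cells (right), with filled circles where no library of a genotype overlaps the other genotype's. In naive cells 27 of 33 circles are filled, all right of 0, and in colon cells 11 are filled, all right of 0; no member passed in edgeR in either panel.

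Among the 4 comparisons of Il6ra-/- with wild-type cells, naive cells had the largest median log2 fold change over the 33 members, 0.52, against 0.24 in colon cells, 0.12 before transfer and 0.10 with hyper-IL-6. The log2 fold change in naive cells was above 0 for 31 of 33 members, with a median of 0.63 over the antiviral genes and 0.46 over the GTPase list, against 0.00 over all genes. Both Il6ra-/- libraries were above both wild-type libraries for 27 of 33 members, where 18.6% of all genes were, and below them for 0 of 33, where 18.9% were. In edgeR 0 of 33 passed (0.0067% of all genes did), and 19 of 33 had an unadjusted p under 0.05, against 10.4% of all genes. Mx1 was at 13.5 and 22.8 CPM in Il6ra-/- and 3.23 and 6.19 CPM in wild-type naive cells (1.94 ± 0.39, edgeR adjusted p = 0.202). Oasl2 was at 38.2 and 47.9 CPM in Il6ra-/- and 17 and 14.2 CPM in wild-type naive cells (1.47 ± 0.21, edgeR adjusted p = 0.0685), and Irf7 at 173 and 198 CPM in Il6ra-/- and 114 and 106 CPM in wild-type naive cells (0.76 ± 0.10, edgeR adjusted p = 0.0523). The libraries of each of these 3 genes were apart, but the test did not call them.

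Other fits of the naive comparison did call members, always as higher in Il6ra-/- cells. DESeq2 called 8 of 33 (Ifi44, Ifit1, Irf7, Mx1, Mx2, Oas2, Oasl2 and Usp18, all antiviral), against 0.395% of all genes. DESeq2 on the naive libraries alone called 14, against 0.397% of all genes, and edgeR with no filter on low counts called 17, against 0.973% of all genes; the first 8 were among both. With those 4 libraries alone, Gbp7, Iigp1 and Irgm1 of the GTPase list were among the 14. Without wild-type naive library 2, edgeR called 6 (Ifit1, Irf7, Mx1, Oas2, Oasl2 and Rsad2), against 2.41% of all genes. With the number of the library as a block edgeR called 0. The 14 myeloid genes summed to between 40.8 and 45.2 CPM in Il6ra-/- and 50.3 and 59.9 CPM in wild-type cells, and the 7 B cell genes to between 409 and 438 CPM in Il6ra-/- and 441 and 461 CPM in wild-type cells. S100a8 and S100a9 were at 0 in all 4 naive libraries. Ifng was at 0.723 and 1.80 CPM in Il6ra-/- and 2.20 and 1.65 CPM in wild-type naive cells.

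With hyper-IL-6 the median log2 fold change of Il6ra-/- over wild-type cells was 0.10 over the antiviral genes and 0.11 over the GTPase list. The test of whether the change from naive to hyper-IL-6 culture differed between genotypes, which shares the naive libraries with the comparison of naive genotypes, gave 0 of 33 members in edgeR, with 0% of all genes passing and 6 members at an unadjusted p under 0.05. Irf7 had the smallest p, with a difference of -1.78 ± 0.30 (edgeR adjusted p = 0.515). In this test DESeq2 called 51 of 14926 genes, 34 with a lower and 17 with a higher change in Il6ra-/- cells. Irf7 was among the 34, as falling further in Il6ra-/- cells. DESeq2 called Irf7, edgeR with no filter called 7 members (Gbp7, Ifit1, Ifit3, Iigp1, Irf7, Mx1 and Rsad2) as falling further in Il6ra-/- cells, where 0.716% of all genes did, and edgeR without wild-type naive library 2 called Irf7 and Mx1, where 1.04% did.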

How the data were processed

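Per the labels' protocols, RNA of the transfer part was prepared with a stranded mRNA kit; the sources used here give neither the culture part's kit nor the strand setting of the counting. The deposited values are raw counts per gene, 1 table per library, which the authors made without normalization. The submitters' processing notes name STAR 2.5.3, SAMtools 0.1.18, HTSeq 0.7.2, R 3.4.3 and DESeq2 1.18.1 with GRCm38 and mm10. Lines that name no gene were left out of library sizes; reads without a feature were between 18.1% and 30.8% of a transfer library's total and between 21.1% and 31.9% of a culture library's. GENCODE M21 named 37693 of the 39179 gene IDs.

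Each part of 10 libraries was fitted on its own in edgeR 4.0.16 (R 4.3.3) with TMM scaling, its filter on low counts by group, a design of groups and the quasi-likelihood test, which left 6 (transfer) and 5 (culture) residual degrees of freedom. The SE is the absolute log2 fold change divided by the root of the F statistic. Alternatives were leaving out each library, a replicate block, a term for the experiment, DESeq2 1.42.0, another scaling and no filter. A group without counts was set to a floor of 3 counts over the group, which covers counting error only. Libraries of a group differed beyond sampling noise. In the transfer part, same-numbered colon libraries deviated together (correlations of 0.58, 0.237 and 0.183), as did those before transfer (0.43); numbers did not pair colon libraries with those before transfer.

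All 33 members were tested and counted; the rule for naming gives values in every library for up to 6 per list with the largest changes that passed. The members and lists were chosen with earlier results of these data known. A few list genes (Gbp5, Gbp6, Gbp10 and Trdc) were not analysed here. Promoters came from RefSeq.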

Additional observations from a re-analysis of the deposited data

How the results depend on the processing

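The 164 of 396 member results that passed in edgeR, or were called in naive cells by DESeq2 on the naive libraries alone, were recomputed gene by gene. None of these changed direction in the 2724 values, of which 2655 kept the side of the threshold, 27 lost a call and 42 gained one. Among the members that did not pass a stage comparison, Bst2, Gbp2, Ifi35, Mx2 and Samhd1 changed sign under at least 1 setting. In the colon between genotypes, DESeq2 on the compared groups alone called 1 member and the other settings called 0. In naive cells between genotypes, the count was 0 in edgeR, 17 with no filter, 8 with DESeq2 and 14 with DESeq2 on the compared groups alone. For the difference of culture changes between genotypes it was 0 in edgeR, 7 with no filter and 1 with DESeq2. The causes were not tested. With the replicate block the colon changes gave 26 calls in Il6ra-/- and 27 in wild-type cells; the block ended the call of Irf9 in Il6ra-/- cells and no other, and culture libraries share only a number. With each library left out in turn, calls ranged from 22 to 28 for Il6ra-/- colon over before transfer, 25 to 27 for wild-type colon over before transfer, 32 to 32 for Il6ra-/- hyper-IL-6 over naive, 31 to 32 for wild-type hyper-IL-6 over naive and 32 to 32 for IL-6 over naive. For the genotype comparisons they ranged from 0 to 0 in the colon, 0 to 1 before transfer, 0 to 6 in naive cells and 0 to 0 with hyper-IL-6, and from 0 to 0 for hyper-IL-6 over IL-6. For the differences of changes they ranged from 0 to 1 in the transfer part and 0 to 2 in the culture part. Over all genes, the colon comparison of genotypes gave 22 calls in edgeR, 94 with the replicate block and 133 with DESeq2. Depth limits the antiviral genes under 1 CPM, where a few counts set the fold change.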
